A study of Mus musculus with 15 samples.

Results

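The transcripts of 37 genes of glycolysis and the hypoxia response were followed through 15 RNA-seq libraries of mouse embryonic fibroblasts. Members were the transcription units whose gene symbols include 1 of 37 fixed names, and every name was found, in 66 of the 65522 units measured. Of these genes, 23 code for glucose and lactate transporters, glycolytic enzymes or switches of glycolytic flux, and 14 belong to oxygen sensing or are known targets of it. For 12 genes there was 1 unit and for 25 there were several, often at the same locus, and the unit with the highest mean stood for the gene. The levels are FPKM, fragments scaled for the length of the transcript and the size of the library, a scale per length on which genes can be compared with each other.

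The study asked what the nuclear matrix protein CIZ1 does for gene expression, and all cells were from female C57BL/6 mice. The groups were 3 WT primary populations (S01 to S03, CIZ1 +/+), 2 CIZ1 null primary populations (S04 and S05, CIZ1 -/-, from mice with a gene trap in Ciz1), 2 CIZ1 null primary inducible populations (S06 and S13, CIZ1 -/- with an inducible GFP-CIZ1 transgene, untreated), 2 such populations given doxycycline (S14 and S15, 5 to 10 µg/ml), 3 WT adapted lines (S07 to S09) and 3 CIZ1 null adapted lines (S10 to S12). Primary populations were taken at early passage, which per the study was not the same passage for all. The adapted lines were grown from these populations in culture. Each adapted line is thus 1 line of 1 embryo and shares that embryo with a primary population. Per the study the E13.17 cells, S06 and S11, carry the transgene, so it is present in 1 library of each null arm. For the primary null arm S06 was joined to S04 and S05, which gave 3 populations per arm. No group received doxycycline without the transgene, so the drug and GFP-CIZ1 cannot be told apart. The level of Ciz1 itself was 18.7 to 25.0 FPKM in the 6 WT libraries, 0.0546 to 0.724 in the 7 untreated null libraries, and 296 and 191 in S14 and S15.

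Glycolysis splits glucose into pyruvate in the cytosol, and fibroblasts in culture turn much of the pyruvate into lactate, which leaves the cell through monocarboxylate transporters. When oxygen is short, the prolyl hydroxylases that mark HIF-1α for destruction slow down, and HIF-1α with its partner ARNT binds the hypoxia response element and raises transcription of glucose transporters, glycolytic enzymes and secreted factors such as VEGF. HIF-1α is controlled mainly at the protein level, so the level of its mRNA is not a measure of its activity.

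The hypoxia response element has the core ACGTG or GCGTG. Both forms were searched on both strands (CACGT and CACGC on the other strand) in the RefSeq promoters of GRCm38.p6, 300 bases that run from 250 bases before to 50 after each start. Of the 37 genes, 36 had a promoter in the table and 33 of them held the core in at least 1 promoter, which is 91.7%. Among all 27025 symbols with a promoter 46.7% held it, and among the 9209 symbols with a unit of at least 1 FPKM on average 67.8% did. Genes with more promoters have more places for a match. The list was made to hold known targets of the hypoxia response, so a high share follows in part from its making. Each form of the core contains CG, and the CG content of the promoters was not matched. Counted by promoter, the core was in 80.8% of the 52 of members, 43.8% of all 32851 and 61.7% of the 11798 of those 9209 symbols. A palindromic CACGTG, which counts on both strands and is also the E-box bound by MYC and MXI1, was in 6 of the 36, or 16.7%, against 8.09% of all symbols and 11.9% of those with such a unit. Windows of 29 bases around the core are shown for the 5 genes that passed a test below and for Ldha, Pdk1 and Hif1a. For each gene 1 window is shown, and some of these genes had more. The windows run 5′ to 3′ on the strand of the gene, with the core in capitals.
Slc16a3, chr11:120949028-120949056, plus strand: caggcagcggtgACGTGcgcgggggacgt
Slc2a1, chr4:119108697-119108725, plus strand: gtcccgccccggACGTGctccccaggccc
Ldhb, chr6:142508067-142508095, minus strand: gcgggggagagcGCGTGcacactccagcc
Mxi1, chr19:53329335-53329363, plus strand: cctcggcacccgACGTGcactggcggggg
Eno1, chr4:150237099-150237127, plus strand: ggccgcctcggtCACGCtcttctattgga
Ldha, chr7:46845744-46845772, plus strand: cggcccagcctaCACGTgggttcccgcac
Pdk1, chr2:71873134-71873162, plus strand: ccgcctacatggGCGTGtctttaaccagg
Hif1a, chr12:73907720-73907748, plus strand: cacacagacaagCACGTgagcggggcagc
The core was thus found both in genes that fell on adaptation and in genes that rose, and a match is a description of letters, not evidence of binding.

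Differences were fitted by limma to log2(FPKM + 1), units entered with a mean of at least 1 FPKM over the libraries compared, and a unit was called at a Benjamini-Hochberg adjusted p under 0.05 over all units tested. Values after the sign ± are standard errors of log2 differences, or SD where given for levels. On this scale differences of low genes are understated. The adaptation and CIZ1 comparisons share libraries, so their values are given side by side and no agreement between them is counted.

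Adaptation of WT cells to culture was the comparison with most calls. The lactate exporter Slc16a3 and the glucose transporter Slc2a1 fell, while Ldhb, the lactate dehydrogenase subunit of oxidative tissues, and Mxi1, a MAX partner that opposes MYC, rose. These were 4 of 35 members tested, or 11.4%, and 9.55% of all 19919 units were called, so the share of members called was near that of all units. By direction, 2 of 35 rose (5.71%, against 2.87% of all units) and 2 fell (5.71%, against 6.68%). At an unadjusted p under 0.05 there were 13 members, 37.1%, against 30.6% of all units. In CIZ1 null cells adaptation gave 1 call in 34 members, or 2.94%, a fall of the enolase Eno1, where 4.86% of all 20044 units were called and 3.47% were called lower. At an unadjusted p under 0.05 there were 11 members, 32.4%, against 29.3% of all units.

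The 23 glycolytic genes had a median log2 difference of -0.40 in WT and -0.64 in CIZ1 null cells over the 22 tested, where the medians of all units tested were -0.05 and -0.04. Of the 22, 14 were below 0 in WT cells and 17 in null cells, where 53.1% and 52.3% of all units were. After quantile normalization the glycolytic medians were -0.12 and -0.33, and in WT cells the median was -0.11 without S07. By role the WT medians were -0.68 for glucose uptake and hexose steps, -0.001 for triose steps, -0.03 for lactate and monocarboxylate and -0.42 for flux switches. In null cells they were -0.56, -0.68, -0.28 and -0.28 in the same order. The triose steps include Gapdh, whose level is uncertain. In WT cells the differences were thus not shared by all steps. The 14 hypoxia genes had medians of -0.16 in WT over 13 tested and 0.36 in CIZ1 null cells over 12 tested. Over all members the WT median was -0.16, and it was 0.08 after quantile normalization and 0.07 with array weights, so no direction of the whole list is read from it. Followed embryo by embryo, 10 of the 35 members with a mean of at least 1 FPKM were lower in the adapted line of every one of the 6 embryos, or 28.6%, and 4 were higher in every one, or 11.4%. Over all 20031 such units the shares were 18.6% and 14.2%. The 10 were Slc2a1, Hk2, Gpi1, Pfkp, Aldoa, Pgam1, Eno1, Pkm, Ldha and Slc16a3, and the 4 were Pfkm, Ldhb, Slc16a1 and Mxi1. Of these 14, Mxi1 is the one gene outside glucose and lactate handling.

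**Figure D1:**
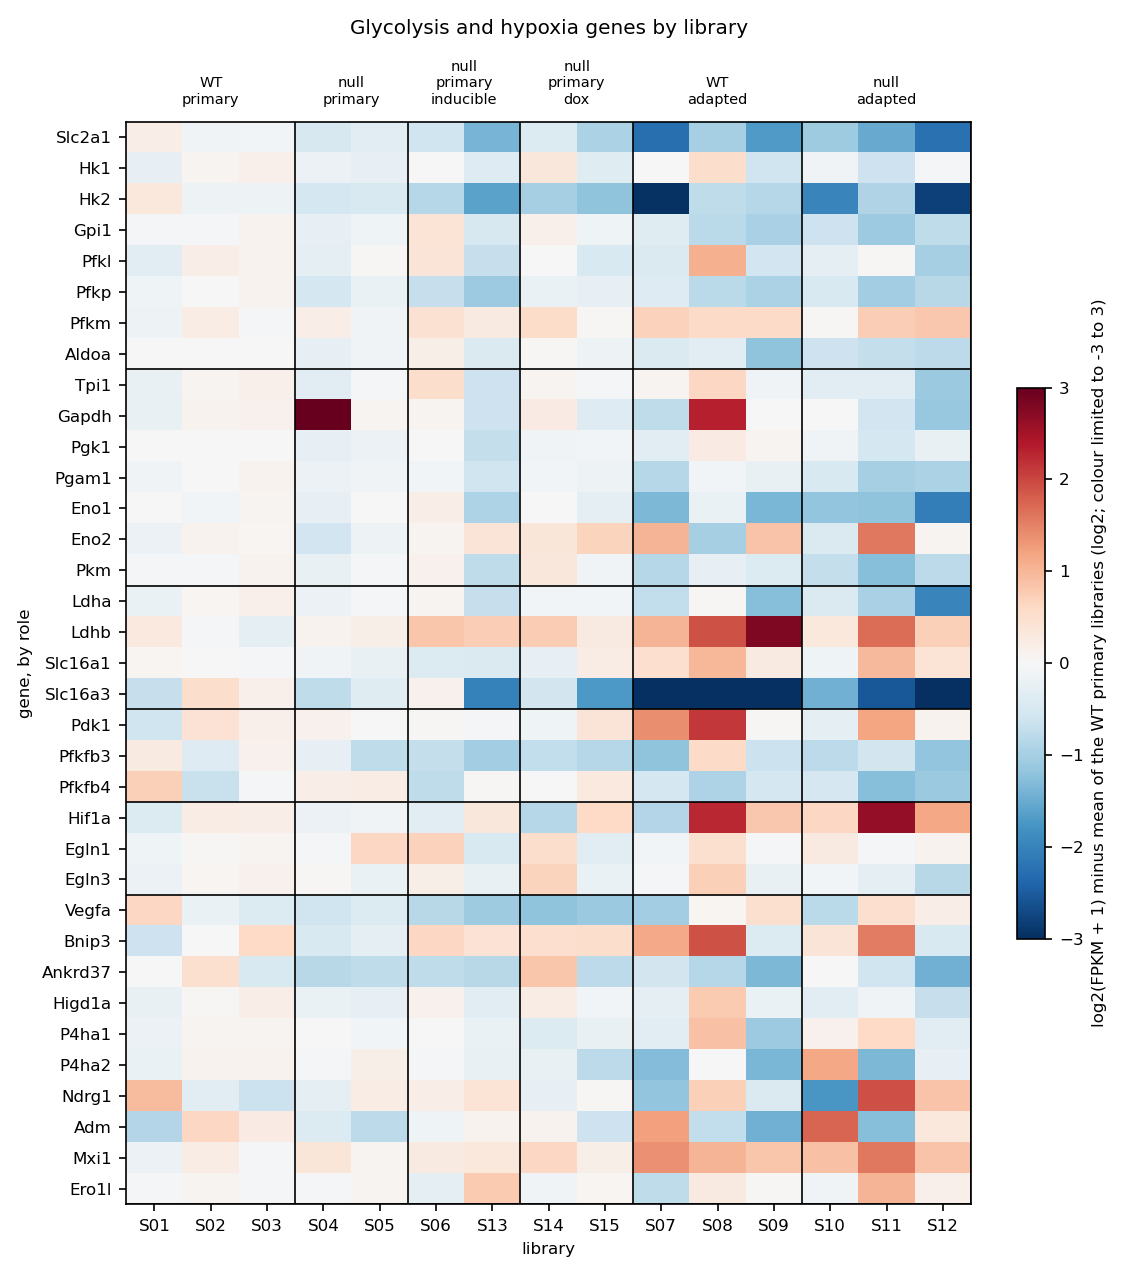
Levels of the 35 members with a mean of at least 1 FPKM in the 15 libraries. Each cell is log2(FPKM + 1) minus the mean of the 3 WT primary libraries (colour, log2, limited to -3 to 3), genes run down by role and libraries across by group. Slc16a3, Slc2a1, Hk2 and Eno1 are blue in the adapted lines while Ldhb and Mxi1 are red, and S08 and S11 are the reddest for Hif1a.

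Glucose enters fibroblasts mainly through GLUT1, the product of Slc2a1 (chr4:119106108-119138801, GRCm38). Its level was 75.3, 60.7 and 61.9 FPKM in WT primary S01 to S03 and 12.8, 32.7 and 19.5 in WT adapted S07 to S09. It was 46.7, 51.6 and 43.0 in primary null S04 to S06 and 30.6, 22.4 and 13.1 in null adapted S10 to S12. The ranges of these primary and adapted libraries did not overlap in either genotype. Untreated primary S13, which is in neither comparison, had 24.2 FPKM, within the null adapted range. The fall in WT cells was -1.65 ± 0.33 (n = 3 and 3, adjusted p = 0.034 by limma), and in null cells the difference was -1.13 ± 0.31 (adjusted p = 0.0781), which missed the threshold. The WT call held in 8 of 13 alternatives, with adjusted p from 0.0144 to 0.137, and was lost with the embryo as a block (adjusted p = 0.0609) and without any 1 of the WT primary libraries. A second unit at the locus, at 17.7 to 21.3 FPKM in WT primary and 3.72 to 11.3 in WT adapted cells, was also called (-1.48 ± 0.35, adjusted p = 0.0489), and since the library kit does not mark strand the pair is not independent.

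Hexokinases trap glucose by phosphorylation, Hk1 as the common form and Hk2 as the inducible form. Hk2 was 22.7, 16.4 and 16.1 FPKM in WT primary and 1.47, 10.3 and 9.66 in WT adapted libraries, and 12.4, 13.02 and 9.64 in primary null against 3.86, 9.19 and 1.75 in null adapted libraries. The groups compared did not overlap in either genotype, though Hk2 in untreated primary S13, at 5.29 FPKM, lay within the null adapted range. The low values of S07, S10 and S12 made the spread wide, and the differences of -1.52 ± 0.59 in WT and -1.29 ± 0.46 in null cells were not called (adjusted p = 0.141 and 0.131 by limma). Hk1 stayed between 22.0 and 50.1 FPKM in all 15 libraries, with primary and adapted ranges that overlapped.

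Glucose-6-phosphate isomerase, Gpi1, was 202, 203 and 225 FPKM in WT primary and 162, 120.3 and 106 in WT adapted libraries. This unit is named Gm12762 and Gpi1 together, so its level may not be that of Gpi1 alone. The null libraries had 177, 192 and 279.6 against 136, 98.4 and 123. No adapted line reached the lowest primary population of its genotype (-0.71 ± 0.20 in WT, adjusted p = 0.0667, and -0.84 ± 0.24 in null cells, adjusted p = 0.0869, by limma). A smaller second unit that carries the Gpi1 symbol was called in both (-1.07 ± 0.25, adjusted p = 0.046, and -1.26 ± 0.22, adjusted p = 0.0363).

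Phosphofructokinase commits the sugar to glycolysis, and its isoforms differed. The platelet form Pfkp was 15.5, 17.2 and 18.3 FPKM in WT primary and 12.7, 9.29 and 8.37 in WT adapted libraries, and 11.5, 14.6 and 10.2 against 12.04, 7.76 and 9.10 in null cells, where the groups overlapped. The muscle form Pfkm was 9.03, 12.03 and 9.83 in WT primary and 17.0, 15.6 and 15.8 in WT adapted libraries, and 11.97, 9.36 and 14.4 against 10.53, 17.9 and 18.6 in null cells. WT groups did not overlap for either isoform, and the differences of -0.71 ± 0.20 for Pfkp and 0.61 ± 0.17 for Pfkm both missed the threshold (adjusted p = 0.0692 and 0.0691 by limma). The liver form Pfkl ranged from 20.4 to 88.1 FPKM, and its highest value was that of S08.

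Aldolase A, which splits fructose bisphosphate and is encoded by Aldoa, was 612 to 623 FPKM in WT primary and 457, 496 and 266 in WT adapted libraries, and 517, 569.8 and 699 against 398, 377 and 358 in null cells. All 6 adapted lines lay below the 6 primary populations of the comparisons but not all below untreated S13 (454 FPKM), with differences of -0.65 ± 0.25 in WT and -0.65 ± 0.18 in null cells (adjusted p = 0.139 and 0.0814 by limma). Aldoc, the brain form, did not exceed 1.65 FPKM in any library.

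In the triose steps the 7 enzymes did not move as a block. Eno1, the main enolase (chr4:150236721-150248879), was 837, 996 and 1153 FPKM in primary null S04 to S06 and 437, 436 and 238 in null adapted S10 to S12, groups well apart (995 ± 158 SD against 370 ± 114 SD, n = 3 each). This fall was -1.47 ± 0.29 with adjusted p = 0.0455 by limma. It held in 5 of 16 alternatives, with adjusted p from 0.0175 to 0.182, and was lost with the embryo as a block (adjusted p = 0.0763) and without S04, S05, S06, S11 or S12. In WT cells Eno1 was 1007, 942 and 1058 in primary and 391, 865 and 387 in adapted libraries, and the difference of -0.98 ± 0.33 was not called (adjusted p = 0.102). Here S08 stood near the primary level while S07 and S09 did not, and without S08 the fall in WT cells was called. The neuronal enolase Eno2 was 1.98 to 16.8 FPKM over all libraries.

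Pkm, the pyruvate kinase that makes pyruvate and ATP, was among the most abundant members, at 1045, 1016 and 1141 FPKM in WT primary and 587, 899 and 804 in WT adapted libraries. Null libraries had 912, 1046 and 1165 against 652, 439.9 and 623. The groups compared were apart in both genotypes (-0.50 ± 0.19, adjusted p = 0.132, and -0.88 ± 0.22, adjusted p = 0.0653, by limma). Untreated primary S13 had 629 FPKM of Pkm, within the null adapted range. A smaller Pkm unit was called lower in null cells (-1.05 ± 0.21, adjusted p = 0.0481). Phosphoglycerate mutase, Pgam1, was 150.3, 159.5 and 173 in WT primary and 89.0, 152 and 138 in WT adapted libraries, which overlapped, and 143, 149 and 151 against 116, 79.8 and 83.3 in null cells, which did not (-0.68 ± 0.20, adjusted p = 0.0889). For Pgam1 too S13, at 106 FPKM, lay within the null adapted range. The levels of Tpi1 were 97.4 to 328 and those of Pgk1 218 to 429 FPKM, and for both the primary and adapted ranges overlapped in each genotype.

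Gapdh cannot be read as an enzyme level here. It was listed at 2.52 to 8.22 FPKM in 13 libraries, at 132 in S04 and at 38.1 in S08, whereas the enzymes of the neighbouring steps were at 97.4 to 429 FPKM. Mice carry many near-identical copies of Gapdh, so its level is uncertain, and the part of the copies was not tested. No direction for Gapdh is drawn, and it was left out of the sum of enzymes given below. It did enter the counts and medians over members, and without it the glycolytic medians were -0.42 in WT and -0.63 in null cells.

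**Figure D2:**
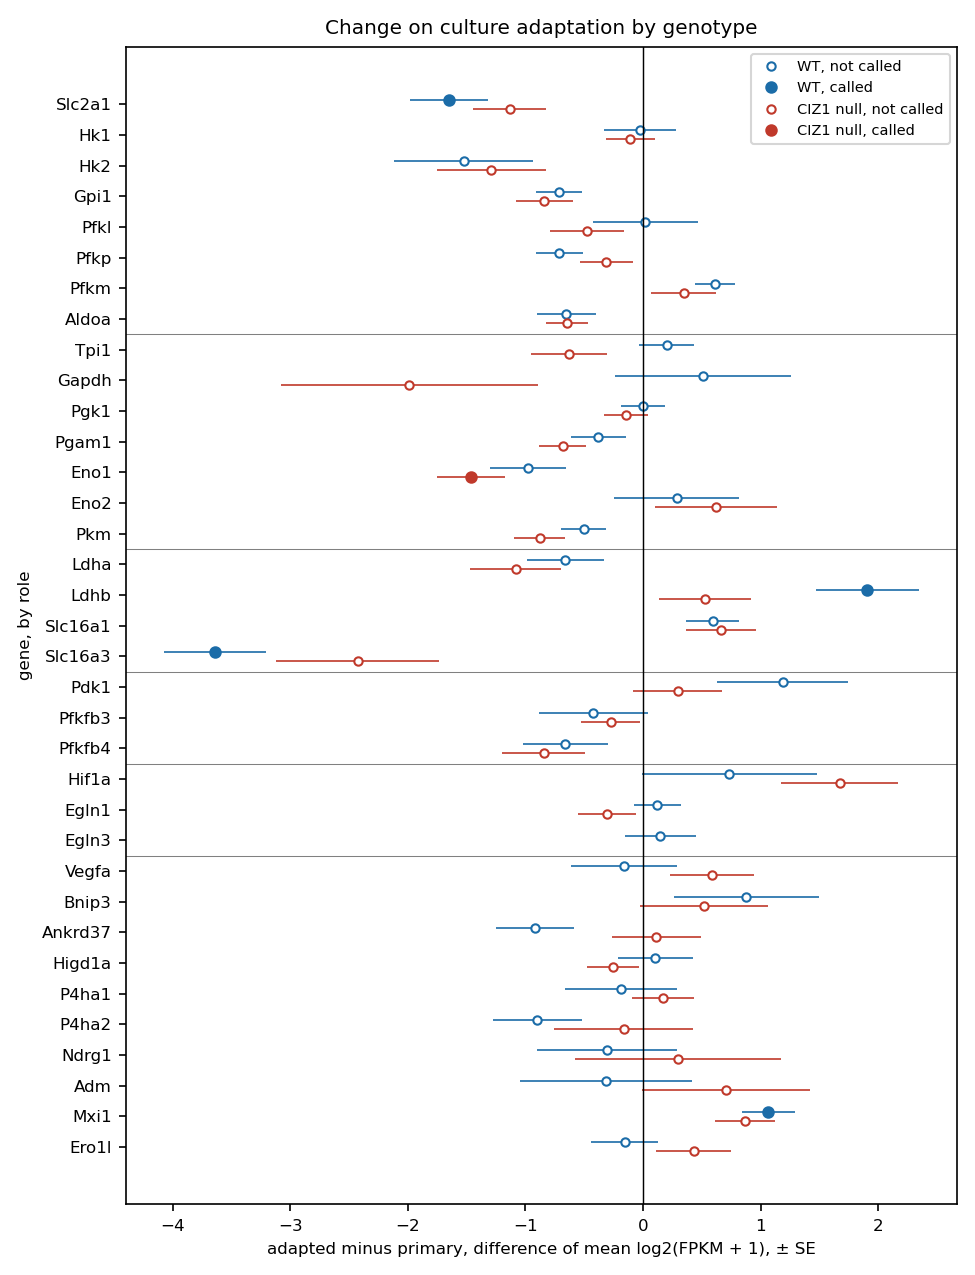
Difference between adapted and primary cells for each member, in WT (blue) and CIZ1 null cells (red). Points are differences of mean log2(FPKM + 1) with bars of 1 SE, filled where called, and genes run down by role. Slc16a3 has the lowest estimate in both genotypes, and the filled points are Slc2a1, Ldhb, Slc16a3 and Mxi1 in WT and Eno1 in CIZ1 null cells.

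At the lactate step Slc16a3 fell and Ldhb rose in WT cells. Slc16a3 codes for MCT4, the low-affinity lactate exporter of glycolytic cells (chr11:120826529-120991330). It was 11.8, 29.0 and 22.0 FPKM in WT primary and 1.58, 0.0507 and 0.680 in WT adapted libraries, a fall of -3.64 ± 0.44 (adjusted p = 0.0125 by limma). Slc16a3 was the member with the lowest adjusted p, and it kept its call with the embryo as a block (adjusted p = 0.0327). The call held in 11 of 13 alternatives, with adjusted p from 0.00701 to 0.079, and was lost without S02 (adjusted p = 0.0666) or S03 (adjusted p = 0.079). Its locus holds 6 units, which without strand cannot be told apart where they overlap. In null cells it was 11.2, 15.004 and 21.5 against 6.59, 2.55 and 0.0517, without overlap, and the difference of -2.43 ± 0.70 was not called (adjusted p = 0.0867). Untreated primary S13, outside this comparison, had 4.06 FPKM, within the null adapted range. S08 and S12 had the lowest levels, and S10 the highest of the adapted lines.

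Slc16a1, which codes for the high-affinity transporter MCT1, was 6.05 to 6.48 FPKM in WT primary and 9.20, 13.5 and 7.74 in WT adapted libraries (0.59 ± 0.22, adjusted p = 0.132 by limma). Null primary libraries had 4.42 to 5.74 and null adapted libraries 5.63, 13.1 and 8.61. The ratio of Slc16a3 to Slc16a1 was 1.81 to 4.86 in the 6 primary libraries of WT cells and S04 to S06, 0.172, 0.00375 and 0.0879 in WT adapted lines, and 1.17, 0.194 and 0.00600 in null adapted lines. No adapted line reached the lowest of these 6 primary populations, but the ratio was 0.941 in untreated primary S13 and 0.716 in treated S15, both below S10.

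The main subunit of lactate dehydrogenase in fibroblasts, Ldha, was 528, 630.3 and 672 FPKM in WT primary and 363, 619 and 251 in WT adapted libraries, which overlapped through S08. In null cells it was 536, 593 and 641 against 449, 309 and 153 (-1.08 ± 0.39, adjusted p = 0.13 by limma). Ldhb was 18.1, 14.4 and 12.1 in WT primary and 30.7, 58.2 and 107 in WT adapted libraries, a rise of 1.91 ± 0.44 (adjusted p = 0.0464). That call held in 7 of 13 alternatives, with adjusted p from 0.0158 to 0.165, and was lost with the embryo as a block (adjusted p = 0.0576), without S08 and without any 1 WT primary library. In null cells Ldhb was 16.0, 16.6 and 26.9 against 18.5, 48.9 and 24.7, where the groups overlapped (0.53 ± 0.39, adjusted p = 0.406). The difference between genotypes in the change of Ldhb was -1.38 ± 0.64 with adjusted p = 0.996, so the rise was not shown to differ between them.

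As a share of the summed level of the 2 subunits, Ldhb was 1.76 to 3.32% in WT primary and 7.80, 8.59 and 29.9% in WT adapted libraries. The share was 2.73 to 4.03% in S04 to S06 and 3.96, 13.7 and 13.9% in null adapted lines. Only S10 of the 6 adapted lines stayed within the range of its primary group. The summed level of 16 glycolytic enzymes (without Gapdh) was 4219, 4310 and 4619 FPKM in WT primary and 2693, 4142 and 2730 in WT adapted libraries. In null cells it was 3711, 4198 and 4904 against 2805, 2321 and 2097. Total FPKM was also lower in adapted lines, at 530202 to 583970 against 630108 to 700699 in these primary libraries. As a percent of total FPKM, the enzyme sum was 0.611 to 0.727 in WT primary and 0.508, 0.752 and 0.488 in WT adapted libraries. These WT groups overlapped through S08. In null cells the percent was 0.53 to 0.73 against 0.359 to 0.491, without overlap. Untreated primary S13, which is in neither comparison, had an enzyme sum of 2705 FPKM and an Ldhb share of 6.34%, a sum within the adapted range and a share above those of the other primary null libraries. These sums and ratios were described and not tested.

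**Figure D3:**
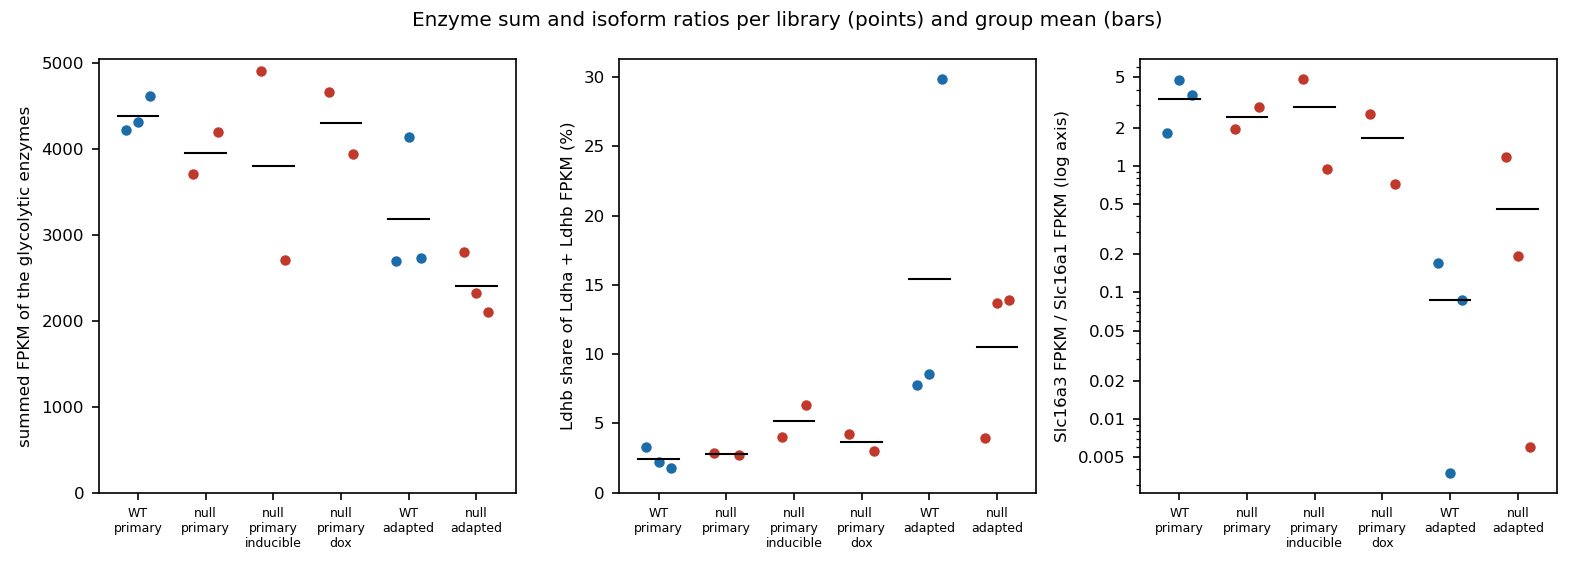
Summed FPKM of 16 glycolytic enzymes (left, linear axis), Ldhb as a percent of Ldha plus Ldhb (middle, linear axis) and the ratio of Slc16a3 to Slc16a1 (right, log axis). Points are libraries, bars are group means, WT is blue and CIZ1 null is red. S08 is the adapted line with the highest sum, at 4142 FPKM, S09 has the highest Ldhb share, and S08 has the lowest transporter ratio.

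Switches of flux sit beside the pathway. PDK1 holds pyruvate back from the mitochondrion, and Pdk1 was 2.27, 5.65 and 4.50 FPKM in WT primary, 12.1, 20.5 and 4.04 in WT adapted, 4.35, 3.92 and 4.02 in primary null and 3.08, 10.3 and 4.31 in null adapted libraries. S07, S08 and S11 stood above every other library and S09, S10 and S12 did not. Pdk1 was not called in either genotype, although in WT cells it was called higher without S09. Of the enzymes that set fructose 2,6-bisphosphate, Pfkfb3 ranged from 2.59 to 11.4 and Pfkfb4 from 0.957 to 6.70 FPKM, with overlap of primary and adapted groups in each genotype.

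Hif1a (chr12:73901325-73949785), the oxygen-labile subunit of HIF-1, was more widely spread among adapted lines than among primary libraries, which ran from 22.0 FPKM in doxycycline-treated S14 to 62.1 in treated S15, with 51.7 in untreated S13. It was 30.2, 47.4 and 47.2 FPKM in WT primary and 36.1, 37.6 and 32.5 in primary null cells. In WT adapted lines it was 21.7, 199.8 and 72.6, so that S07 was the lowest of the 15 libraries. In null adapted lines it was 63.5, 259.8 and 91.6, each above every WT or null primary library in these comparisons, and the difference in null cells was 1.67 ± 0.50 (adjusted p = 0.0913 by limma). In WT cells the groups overlapped (0.73 ± 0.74, adjusted p = 0.541). A second Hif1a unit gave 109 FPKM in S08 and 140.4 in S11, again the 2 highest.

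By embryo, Hif1a was higher in the adapted line of 5 of 6. It went from 47.2 to 199.8 FPKM in E13.8, from 32.5 to 259.8 in E13.17, from 30.2 to 72.6 in E14.4, from 36.1 to 91.6 in E14.2 and from 37.6 to 63.5 in E13.15, and from 47.4 down to 21.7 in E13.1. Of the 33 other members without Gapdh, S08 was the highest WT adapted line for 22, or 66.7%, where it was highest for 30.2% of all units. Among null adapted lines S10 was the highest for 17 of these 33, or 51.5%, and S11 for 14, or 42.4%, where they were highest for 35.5% and 33.0% of all units. Both S08 and S11 had next to no Thy1, a surface marker of fibroblasts, at 0.00 and 0.215 FPKM against 168 to 584 in the other adapted lines. Other fibroblast genes did not follow Thy1, since Col1a1 and Col1a2 were highest of the adapted lines in S08, at 1231 and 1349 FPKM, and the fibroblast sum was 5928 in S08 and 2569 in S11. They did not share the level of proliferation genes, whose sum over 7 markers was 633 FPKM in S08 and 94.8 in S11. The part of these features in the levels of Hif1a was not tested.

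Of the prolyl hydroxylases that act on HIF-1α, Egln1, the main one, ranged from 11.5 to 26.5 FPKM over all libraries in its main unit, whose groups overlapped in both adaptations. Its other units parted, since one fell in WT cells (-0.87 ± 0.19, adjusted p = 0.0429 by limma) and was lower without overlap in null cells (-1.51 ± 0.37, adjusted p = 0.0652), while the other was higher without overlap in both (0.50 ± 0.18, adjusted p = 0.115, and 0.50 ± 0.19, adjusted p = 0.143). Egln3, itself a hypoxia target, ranged from 0.244 to 2.67 FPKM. Egln3 was 0.960, 1.32 and 1.44 in WT primary, 1.13, 2.67 and 0.924 in WT adapted, 1.27, 0.929 and 1.499 in primary null and 1.11, 0.864 and 0.244 in null adapted libraries, and was under the filter in the comparison of null adapted with null primary cells.

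Classical targets of HIF include Vegfa and Bnip3. Vegfa, the angiogenic growth factor, was 83.5, 47.1 and 40.7 FPKM in WT primary, 25.9, 57.1 and 76.7 in WT adapted, 35.3, 40.4 and 30.0 in primary null and 30.5, 77.8 and 62.7 in null adapted libraries. Bnip3, which marks mitochondria for removal, was 10.2, 16.5 and 25.2 in WT primary, 37.1, 63.7 and 11.9 in WT adapted, 11.7, 13.4 and 25.6 in primary null and 21.7, 49.3 and 11.5 in null adapted libraries. For both genes primary and adapted ranges overlapped in each genotype. For Bnip3 the highest adapted lines were again S08 and S11.

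Car9, a carbonic anhydrase that is nearly silent in many tissues until oxygen falls, was 0.0626 to 1.94 FPKM and was under the filter in all 6 comparisons. Ankrd37 was 2.82, 4.33 and 1.78 in WT primary and 1.62, 1.13 and 0.507 in WT adapted libraries, without overlap (-0.92 ± 0.33, adjusted p = 0.119 by limma). In null cells it was 1.14 to 1.27 against 2.83, 1.55 and 0.420, which overlapped.

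Mxi1 (chr19:53310506-53375810) was 1.36, 2.14 and 1.57 FPKM in WT primary and 5.86, 4.36 and 3.72 in WT adapted libraries, a rise of 1.06 ± 0.22 (adjusted p = 0.0383 by limma). The rise held in 5 of 12 alternatives, with adjusted p from 0.0198 to 0.153, and was lost with the embryo as a block (adjusted p = 0.0609), without S07 or S08 and without any 1 WT primary library. Null cells had 2.41, 1.82 and 2.21 against 3.88, 6.93 and 3.83, a difference of 0.87 ± 0.25 that was not called (adjusted p = 0.0888). No adapted line fell to the level of any primary population of WT or untreated null cells. Of the others, Higd1a was 12.8 to 36.97, P4ha1 53.3 to 212, P4ha2 27.1 to 162, Ndrg1 2.54 to 44.2, Adm 12.5 to 120.2 and Ero1l 8.63 to 32.4 FPKM, and none was called in any comparison.

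**Figure D4:**
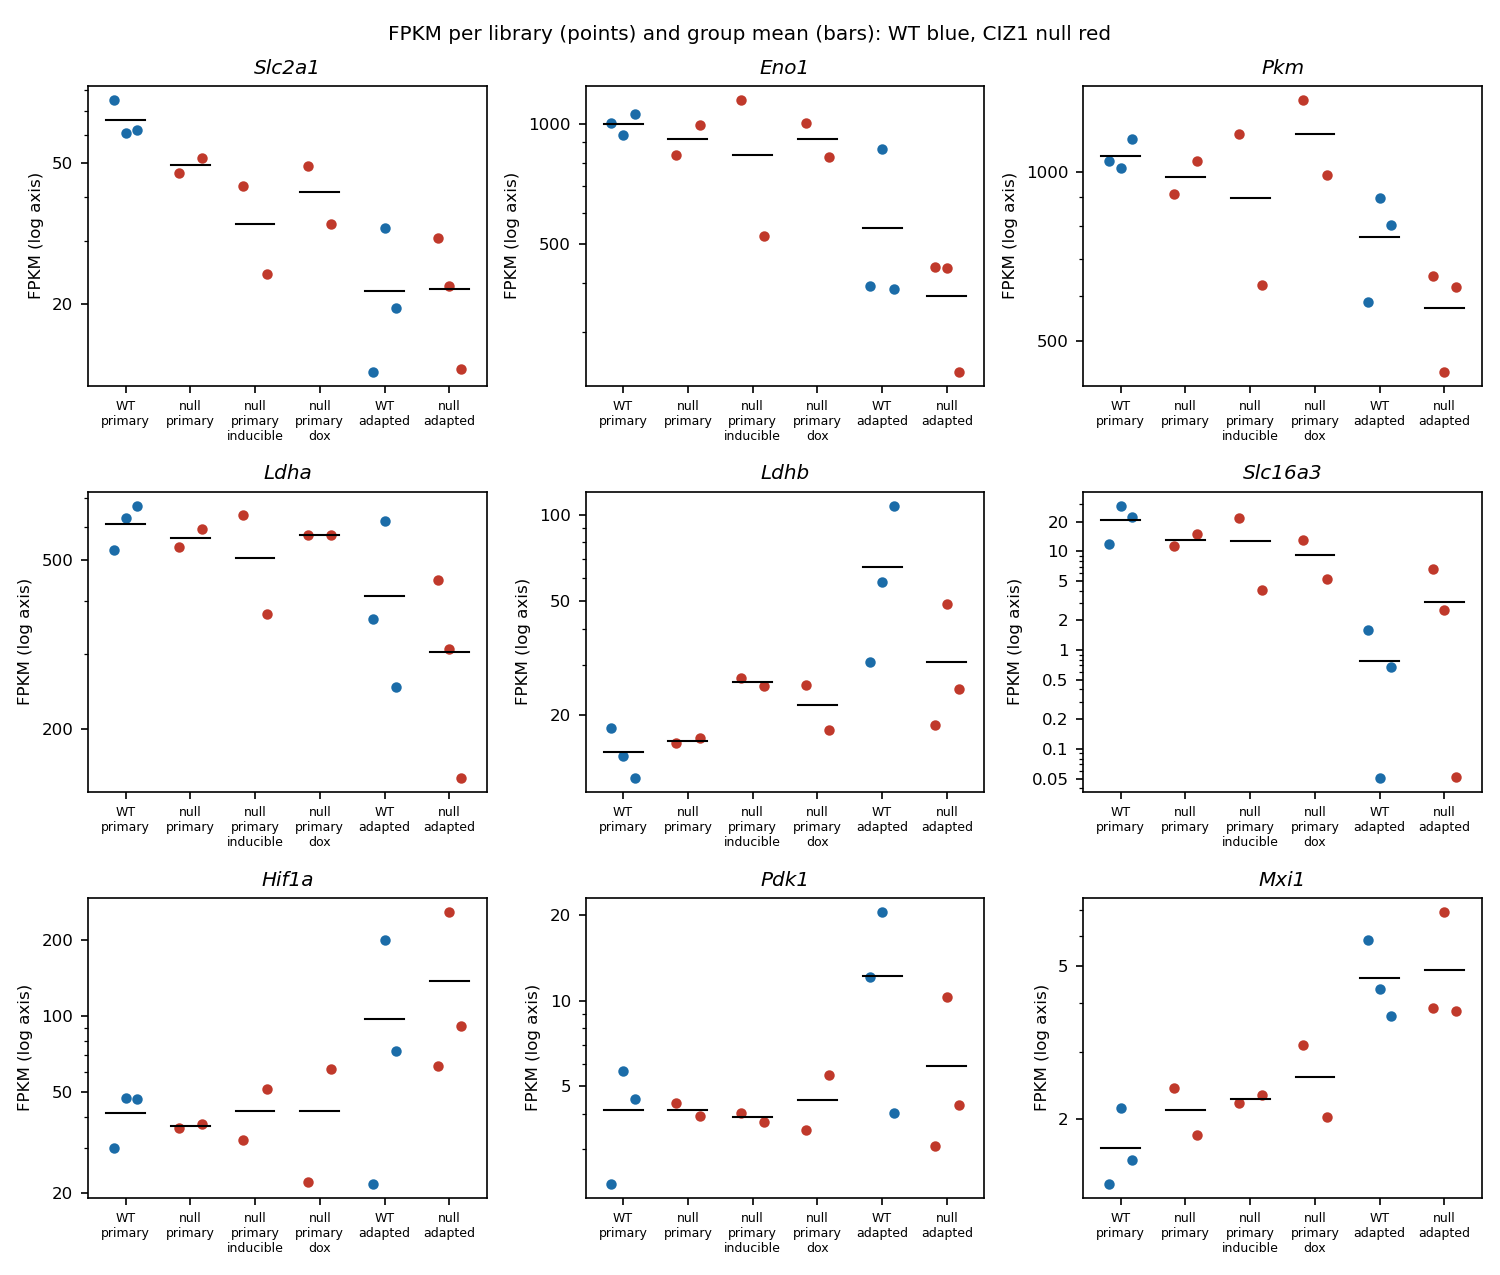
FPKM of 9 members per library (points, log axis) with the group mean (bars), WT in blue and CIZ1 null in red. The 3 WT adapted lines lie below every WT primary library for Slc2a1, Eno1, Pkm and Slc16a3 and above them for Ldhb and Mxi1, and the adapted lines spread widely for Hif1a and Pdk1.

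Adapted lines were less alike than primary populations. The median SD of a member on the log2 scale was 0.20 among WT primary and 0.64 among WT adapted libraries, and 0.21 and 0.52 among the null ones. Over all 20031 units with a mean of at least 1 FPKM the medians were 0.185 and 0.36 in WT, and 0.216 and 0.357 in null cells, and the difference between members and units was not tested. Counting groups without overlap, WT adapted lines were lower for 9 of 35 members (25.7%, against 21.4% of all units) and higher for 4 (11.4%, against 17.3%). In null cells they were lower for 10 of 34 (29.4%, against 19.6%) and higher for 2 (5.88%, against 17.5%). Gapdh is among these 10, and without it 9 of 33 were lower (27.3%) and 2 higher (6.06%).

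Other features moved with adaptation too, and their part was not tested. The summed level of 10 fibroblast markers was 10239 to 11003 FPKM in the 6 primary libraries of the comparisons and 2569 to 6678 in the adapted lines, and that of 5 erythroid genes 34.6 to 47.1 against 3.64 to 11.7. The 5 macrophage and leukocyte genes summed to 8.55 to 87.2 against 2.15 to 15.1, with Adgre1 at 0 in WT adapted lines. The 5 muscle genes summed to 6.14 to 13.6 in primary and 0 to 0.687 in adapted libraries, and Des, which makes up most of that sum, fell in both genotypes (-3.10, adjusted p = 0.00992, and -2.88, adjusted p = 0.0189, by limma). Endothelial markers stayed at 2.70 or less and epithelial ones at 11.6 or less, and the neural list reached 26.7 in 1 WT adapted line. Proliferation genes were 260 to 398 FPKM in those primary libraries, 633 to 680 in WT adapted lines and 675, 94.8 and 172 in S10, S11 and S12. Relative depth, set to 1 in S01, was 1 to 1.62 in the same primary libraries and 0.543 to 1.19 in adapted lines. The erythroid sum was low in some other primary cultures too, down to 6.15 FPKM in the untreated inducible pair and 4.33 in the treated pair. In bulk RNA fewer cells of a type and less RNA per cell cannot be told apart.

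Loss of CIZ1 in primary cells was compared over S01 to S03 and S04 to S06. None of 35 members was called by limma, and of all 19566 units 1 was, Ciz1 itself, or 0.00511%. There were 5 members, all lower in null cells, that had an unadjusted p under 0.05, or 14.3%, where 2.73% of all units had so and were lower. They were Slc2a1 (-0.48 ± 0.13, adjusted p = 0.682), Hk2 (-0.61 ± 0.18, adjusted p = 0.696), Ankrd37 (-0.79 ± 0.25, adjusted p = 0.719), Pfkp (-0.47 ± 0.16, adjusted p = 0.747) and Pfkfb3 (-0.57 ± 0.23, adjusted p = 0.785). Null values lay wholly below WT values for 7 of 35 members, or 20.0%, against 5.72% of all units. None of these passed the adjustment, and the same WT primary libraries are the baseline of the WT adaptation values above.

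In adapted cells loss of CIZ1 gave no called member of 35 by limma, and 1 of 19976 units, or 0.00501%, again Ciz1. One member, the isomerase Tpi1, had an unadjusted p under 0.05 (2.86% of members against 4.02% of units), at 222, 328 and 198 FPKM in WT and 171, 168 and 97.4 in null lines (-0.78 ± 0.33, adjusted p = 0.998). The difference of adaptation between genotypes, tested as an interaction over 12 libraries, called 0 of 35 members and 0% of 20046 units by limma. No member had an unadjusted p under 0.05 there, against 4.63% of units.

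Doxycycline induction of GFP-CIZ1 was compared between S14 and S15 and the untreated S06 and S13. No member of 36 was called by limma and none had an unadjusted p under 0.05, where 0.0101% of 19768 units were called and 1.76% had such a p. Values of treated and untreated libraries did not overlap for 5 members, or 13.9%, against 19.7% of all units. Slc2a1 was 49.0 and 33.5 FPKM in treated and 43.0 and 24.2 in untreated libraries, and Slc16a3 13.02 and 5.28 against 21.5 and 4.06. Eno1 was 1008 and 826 against 1153 and 524, and Ldha 574 and 573 against 641 and 374. Of the untreated pair S13 was the lower for each of these 4 genes, and it also had the lowest relative depth, 0.483. The untreated pair thus spanned more than the treated pair for all 4 genes. Per the study, treated and untreated cells came from the same 2 embryos, E13.17 and E14.19. S06 is E13.17, so by elimination S13 would be E14.19, which the study lists at an earlier passage than E13.17. Which of S14 and S15 is which is not given in the sources used here. With the embryo as a block no member was called under either assignment.

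Further genes of the pathway were counted over whole lists, beside 9.55% of all units called in WT and 4.86% in null adaptation, and shares near these are no result about a list. None of their calls in null cells held with the embryo as a block (adjusted p = 0.0586 to 0.101), where 10 of 20044 units were called in place of 975. In WT cells the Eno3 unit and Cxcl12 kept their calls under the block and Pgd, Ep300, Siah2, P4hb and Nampt did not (adjusted p = 0.0504 to 0.0779). Of 34 other glycolytic isozymes and genes of pyruvate entry, 26 were tested in WT and 25 in null adaptation and 1 was called lower in each, a unit named Eno3, Pfn1 and Rnf167 together, so that the muscle enolase cannot be told apart from its neighbours. Of 22 genes of the pentose phosphate path and glycogen, Pgd, an enzyme that makes NADPH, was the 1 called of 17 tested in WT cells, at 87.7 to 112 FPKM in primary and 39.3 to 58.8 in adapted libraries (-0.95 ± 0.21, adjusted p = 0.0404 by limma). Of the 19 tested in null cells the glycogen branching enzyme Gbe1 was the 1 called, at 1.85 to 2.42 against 5.01 to 7.02 FPKM (1.12 ± 0.20, adjusted p = 0.0363).

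Of 16 subunits and regulators of HIF, 15 were tested in each adaptation. The coactivator Ep300 rose in WT (1.40 ± 0.21, adjusted p = 0.0182 by limma) and in null cells (1.52 ± 0.19, adjusted p = 0.0215), from 5.35 to 8.79 FPKM in the 6 primary libraries to 18.1 to 22.8 in the adapted lines. Siah2, a ubiquitin ligase that lowers prolyl hydroxylases, fell in both (-1.32 ± 0.23, adjusted p = 0.0259, and -1.74 ± 0.25, adjusted p = 0.0263). Outside these comparisons, primary S13 (untreated) and S15 (treated) had 11.6 and 13.9 FPKM of Ep300, above the 6 primary libraries and below the adapted lines. Their Siah2 levels, 2.57 and 3.81 FPKM, lay within the adapted range of 1.58 to 4.02. Epas1, which codes for HIF-2α, was 0.908 to 2.80 FPKM in these primary and 0.323 to 1.24 in adapted libraries (adjusted p = 0.102 and 0.169). Arnt ranged from 13.5 to 25.3 and Vhl, which targets HIF for destruction, from 4.89 to 10.3 FPKM over all libraries, and neither was called.

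Other hypoxia targets were also called in WT cells. P4hb, a subunit of prolyl 4-hydroxylase, fell (-0.84 ± 0.17, adjusted p = 0.0355 by limma), and the chemokine Cxcl12 (3.11 ± 0.51, adjusted p = 0.0218) and Nampt (1.11 ± 0.21, adjusted p = 0.0287) rose. Among 32 such targets tested in null cells Cxcl12 (2.76 ± 0.40, adjusted p = 0.0262) and Gbe1 rose and Plod1 fell (-0.99 ± 0.16, adjusted p = 0.0303). None of 12 other regulators of glycolytic genes was called. Myc, a driver of glycolytic genes, was 28.3 to 52.1 FPKM in the 6 primary libraries and 7.54 to 40.0 in adapted lines (adjusted p = 0.271 in WT and 0.24 in null cells).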

How the data were processed

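RNA-seq of poly(A) RNA from 15 populations of mouse embryonic fibroblasts was used. Per the labels and the methods, the authors trimmed reads with cutadapt 1.8.3, aligned them to GRCm38 with HISAT2 2.0.5, assembled transcripts with Cufflinks and deposited FPKM made with Cuffnorm. A second deposited table, of group means, log2 fold changes, p-values and q-values from Cuffdiff 2.2.1 for 4 comparisons of groups, was not used. Each column of FPKM was matched to a sample by its number, with 0 columns left over, and 0 of 105 pairs of libraries were identical. The source name of S06 reads S13, and its title was followed. The study states an approximate number of reads per sample, but read totals by library are not given in the sources used here. Relative depth came from 1135 units under 0.3 FPKM, and it ran from 0.483 to 1.62.

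The deposited FPKM were put on the scale log2(FPKM + 1), and differences were fitted by limma 3.58.1 under R 4.3.3 with its trend option, with only the libraries of a comparison in the fit, a mean of at least 1 FPKM and Benjamini-Hochberg adjustment over all units at 0.05. The fit was tested on simulated data. Replicates are separate embryos or lines. Primary and adapted samples share embryos, read by matching the FPKM columns to the per-line tables of the study, whose column names carry the embryo. Deviations of paired libraries from group means had correlations of 0.211, 0.146 and -0.005 in WT and -0.019, 0.106 and 0.088 in null cells, so pairing rests on the embryo. With the embryo as a block 1 member (Slc16a3) was called in WT in place of 4 and 0 in null cells in place of 1.

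The members and lists were chosen with earlier results of these data known. Named were members called in at least 1 of 6 comparisons, then those with the smallest p up to 15, and 10 given in advance, 21 in all. Promoters came from RefSeq (GRCm38.p6). Alternatives were a pseudocount of 0.1, no filter, a mean of at least 5 FPKM, quantile normalization, 1 fit of 15 samples, array weights, other primary null arms, the embryo block (for doxycycline under both possible assignments, since which treated library is which embryo is not given in the sources used here) and each library left out. Python 3.11.15, pandas 2.3.3, NumPy 2.4.6 and Matplotlib 3.10.9 were used. One result of the list of other hypoxia targets is not reported here.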

Additional observations from a re-analysis of the deposited data

How the results depend on the processing

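No called member changed direction under the alternatives run. Over single genes and settings 330 results stayed on their side of the threshold, 23 newly passed it and 31 no longer did. In WT adaptation 2 members were called higher and 2 lower. Without the filter these were 0 and 1, with a mean of at least 5 FPKM 1 higher, with array weights 4 lower, and with the replicate block by embryo 0 higher and 1 lower (Slc16a3). Leaving out 1 library gave 0 to 3 higher and 0 to 4 lower. Without WT primary S02 or S03 no member was called, without S01 1 was (Slc16a3), and without S08 the calls were Eno1, Slc2a1, Slc16a3 and P4ha2, all lower. In CIZ1 null adaptation 0 were called higher and 1 lower. The count lower was 0 without the filter, after quantile normalization, with 2 or 4 primary null samples, with the replicate block and without both S11 and S12, an alternative chosen after seeing the data. With all 15 samples in 1 fit 1 was higher and 5 lower, and with array weights 1 and 4. Leaving out 1 library gave 0 to 2 higher and 0 to 6 lower, the highest without S10. Eno1 was not called without S04, S05, S06, S11 or S12. The 4 other comparisons called 0 members under every alternative run. With the replicate block for doxycycline under either assignment of embryos, added after seeing the data, 0 members were called, and 0 or 25 of all units. Over all units the calls also moved, from 1902 to 499 in WT and from 975 to 10 in null cells with the block, and to 62 to 70 without a WT primary library and 25 to 30 without a primary null library. Read totals by library are unknown, and relative depth was 0.483 to 1.62.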
